A study of Mus musculus with 10 samples.

Results

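The genes described here are 33 genes of sterol and fatty acid synthesis, its regulation, and the removal of cholesterol from cells, taken by symbol from a table of 22186 genes. All 33 were listed in the table, and all 33 passed the filter on low values (a mean of at least 1 FPKM) that left 9869 genes for testing. The cells were RAW264.7, macrophage-like mouse cells of wild-type label whose line was started from a tumour induced by a virus. The first group was 5 libraries from cells kept for 24 h in medium with doxorubicin, and the other was 5 libraries from cells kept in medium. Doxorubicin, an anthracycline, damages DNA by holding topoisomerase II at its cuts. The dose was given as 10 nM in the sample titles and as 100 nM in the series design, and the dilution in the treatment protocol works out at 1000 nM, so no value below is tied to a dose. Dimethyl sulfoxide was named as the solvent of doxorubicin and was not named for the medium cultures. All libraries came from 1 line, and no label states that the 5 libraries of a group were separate cultures. The p-values therefore measure only the spread between these samples, which may be technical.

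Cells make cholesterol from acetyl-CoA through the mevalonate pathway, which ends in farnesyl diphosphate, and then through squalene and lanosterol. When sterols in the endoplasmic reticulum are low, the SREBP transcription factors (encoded by Srebf1 and Srebf2) leave with their escort SCAP, are cut in the Golgi and switch on the enzymes of the pathway, while INSIG proteins hold SCAP back when sterols are plentiful. When sterols are in excess, oxysterols activate the LXR receptors, which raise cholesterol exporters such as ABCA1 and ABCG1. Macrophages rely on this export because they take up large amounts of lipid from dead cells and lipoproteins.

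SREBPs bind promoters together with NF-Y, a factor that recognises the letters CCAAT. Promoters of 6 genes are printed below, chosen for their role or their response and not for their motifs. Hmgcs1, Idi1, Msmo1 and Insig1 are SREBP-regulated genes whose response to doxorubicin differed between replicate numbers, Acat2 had the largest such difference among the 33 genes, and Abca1 encodes an exporter whose difference did not pass. Each is the 250 bases before the gene's start in RefSeq (GRCm38.p6), read 5′ to 3′ on the strand of the gene, at chr13:119690101-119690350 (plus strand) for Hmgcs1, chr13:8885356-8885605 (plus) for Idi1, chr5:28071162-28071411 (plus) for Insig1, chr8:64733579-64733828 (minus) for Msmo1, chr17:12960726-12960975 (minus) for Acat2 and chr4:53159896-53160145 (minus) for Abca1. Capitals mark CCAAT on either strand (ATTGG is the same site read on the other strand) and, in Hmgcs1, the core of a sterol regulatory element.
Hmgcs1: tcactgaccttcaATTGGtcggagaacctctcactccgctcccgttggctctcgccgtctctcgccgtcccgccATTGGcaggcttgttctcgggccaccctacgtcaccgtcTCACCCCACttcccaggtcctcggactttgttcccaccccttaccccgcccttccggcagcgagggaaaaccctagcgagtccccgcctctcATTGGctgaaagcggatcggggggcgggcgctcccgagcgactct
Idi1: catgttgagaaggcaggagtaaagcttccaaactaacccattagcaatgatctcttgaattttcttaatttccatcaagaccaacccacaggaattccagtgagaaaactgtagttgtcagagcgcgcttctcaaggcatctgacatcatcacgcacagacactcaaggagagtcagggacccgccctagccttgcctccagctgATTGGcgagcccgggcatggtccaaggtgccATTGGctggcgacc
Insig1: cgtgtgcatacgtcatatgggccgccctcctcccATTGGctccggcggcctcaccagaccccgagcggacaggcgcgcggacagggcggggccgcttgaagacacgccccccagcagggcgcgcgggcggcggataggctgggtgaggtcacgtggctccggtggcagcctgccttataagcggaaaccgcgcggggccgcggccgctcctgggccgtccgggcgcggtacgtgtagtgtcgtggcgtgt
Msmo1: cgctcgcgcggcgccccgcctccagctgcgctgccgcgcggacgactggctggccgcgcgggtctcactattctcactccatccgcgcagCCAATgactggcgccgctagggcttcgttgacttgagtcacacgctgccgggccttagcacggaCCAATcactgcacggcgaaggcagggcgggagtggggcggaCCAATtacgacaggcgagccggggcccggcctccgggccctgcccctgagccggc
Acat2: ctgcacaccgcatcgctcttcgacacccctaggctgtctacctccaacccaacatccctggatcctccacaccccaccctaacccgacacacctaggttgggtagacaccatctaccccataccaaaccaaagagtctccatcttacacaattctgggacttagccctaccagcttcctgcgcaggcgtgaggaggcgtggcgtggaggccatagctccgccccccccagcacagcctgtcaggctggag
Abca1: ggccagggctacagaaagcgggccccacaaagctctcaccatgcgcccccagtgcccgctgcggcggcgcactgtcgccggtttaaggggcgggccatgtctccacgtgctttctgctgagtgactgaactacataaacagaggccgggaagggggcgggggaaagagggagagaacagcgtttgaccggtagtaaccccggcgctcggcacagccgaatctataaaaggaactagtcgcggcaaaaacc

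Hmgcs1 held CCAAT 3 times and a sterol element core, TCACCCCAC. Idi1 held it 2 times, Msmo1 3 times and Insig1 1 time, while the printed bases of Acat2 and Abca1 held neither motif. RefSeq promoters of 250 bases before to 50 after the start were at hand for 26 of the 33 genes. Fdps, Fdft1, Sqle, Stard4, Scd1, Scd2 and Abcg1 had no entry. CCAAT on either strand was present in 21 of the 26 (80.8%), against 43.5% of the 8045 tested genes with a promoter and 41.1% of all 27025 genes of the promoter table. Among the 21, the difference between replicate numbers passed on values as deposited only for Hmgcs1, Idi1, Msmo1 and Insig1. It did not pass for the others, such as Fasn, Cyp51, Dhcr7, the kinase gene Mvk and the LXR target Mylip. The GC box GGGCGG was present in 22 of 26 (84.6%), against 71.2% of tested genes. The sterol element core TCACNCCAC was present in 1 of 26, Hmgcs1, against 1.38% of tested genes, and the E-box form TCACGTGA in 0 of 26, against 2.50%. The direct repeat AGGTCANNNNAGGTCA of LXR was found in 0 of 26 and in 4 of all 27025 genes (0.0148%). Each motif was searched on both strands, separately from the others. These counts describe letters in a fixed window and not binding.

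FPKM, which counts fragments relative to the length of a transcript and to the size of the library, summed to 338293 to 356111 per library. The values carry no read totals, so depth is unknown. The 2 libraries with replicate number 1 stood apart: they correlated with the other 8 at 0.937 to 0.982, against 0.976 to 0.998 among those 8. Among the 8, numbers 2 and 3 lay close together and so did numbers 4 and 5 (the check is given with the processing). Results are therefore given with and without number 1. Of 8 macrophage markers, 7 had a mean of at least 1 FPKM (Mertk, at 0.31 FPKM, did not), and their sum ran from 1381 to 1599 FPKM in doxorubicin libraries and from 1322 to 1486 FPKM in medium libraries. Of 23 markers of 9 other cell types, 1 (S100a8) had a mean of at least 1 FPKM and 9 were at 0 in every library. In a bulk culture, fewer cells of a kind and less RNA per cell cannot be told apart.

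Over all 5 replicate numbers, none of the 33 genes passed the test of doxorubicin against medium. With limma on log2(FPKM + 1), group as the only term and Benjamini-Hochberg adjustment over 9869 genes, 0 of 33 rose and 0 fell, where 0.689% of all tested genes rose and 0.223% fell. At an unadjusted p under 0.05 the count was also 0 of 33, against 1757 of 9869 genes. The median log2 change of the 33 was 0.11, against -0.03 over all tested genes. For 0 of 33 did all 5 doxorubicin libraries lie on 1 side of all 5 medium libraries, against 6.7% of tested genes.

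Libraries with the same number moved together, and with the replicate number as a block in the same limma model 5 of 33 genes rose (15.2%) and 0 fell. Of all tested genes, 7.81% rose and 13.7% fell in that fit. The 5 were Acat2 and Hsd17b7, Dhcr7, Fasn and Acly, enzymes of the sterol and fatty acid routes. In all, 7 genes were higher with doxorubicin in each of the 5 numbers (these 5 with Ebp and Stard4), and 0 were lower in each, against 13.2% and 23.1% of all tested genes. Without both number 1 libraries, the fit with the block called 14 of 33 higher and 1 lower, against 10.2% and 18.4% of all tested genes, and the fit without the block called 0 in either direction (2.87% higher and 2.77% lower of all tested genes).

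**Figure D1:**
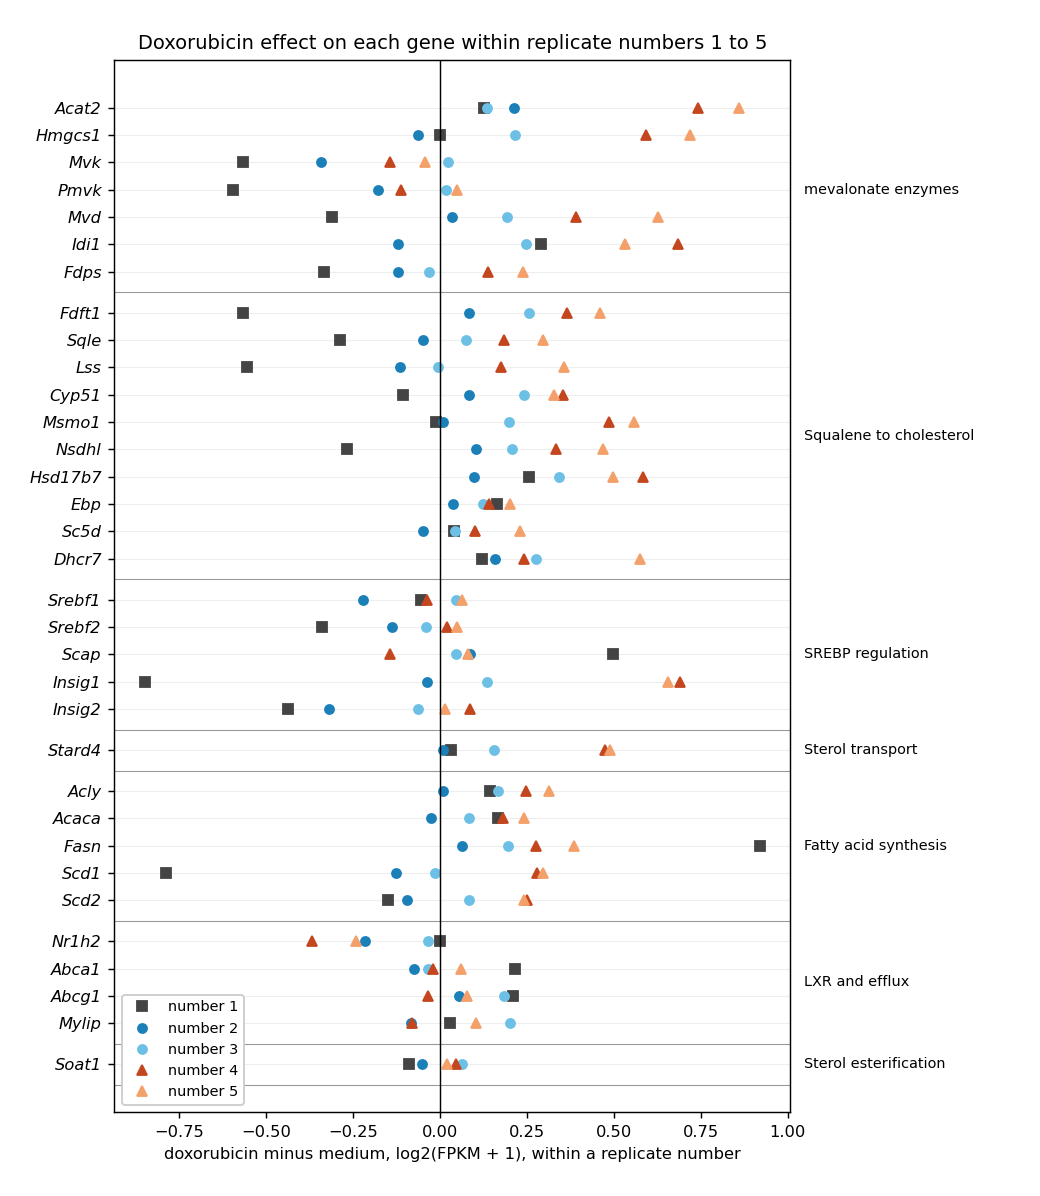
Difference between the doxorubicin and the medium library of the same replicate number, on the log2(FPKM + 1) scale, for each of the 33 genes grouped by role. Numbers 4 and 5 sit above 0 for 20 and 21 of the 22 synthesis enzymes, with medians of 0.26 and 0.34, while numbers 1 and 2 scatter on both sides.

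The 22 enzymes of synthesis did not respond alike in all numbers. Their median difference between the doxorubicin and the medium library was -0.06 in number 1, -0.01 in number 2, 0.15 in number 3, 0.26 in number 4 and 0.34 in number 5. The same medians over all tested genes were 0.02, -0.07, 0.00, -0.03 and -0.03. Of the 22 enzymes, 10, 11, 19, 20 and 21 were higher with doxorubicin in numbers 1 to 5. A limma model of 8 libraries (without number 1, with the block) therefore estimated the effect within numbers 4 and 5 and within numbers 2 and 3, and tested the difference. This split was chosen after the values were seen, from the same values, and left 2 residual degrees of freedom per gene. If the libraries of a set are not independent cultures, these p-values are too small.

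Within numbers 4 and 5, 21 of 33 genes rose (63.6%) and 1 fell, against 13.5% and 20.9% of all tested genes. Within numbers 2 and 3, 0 of 33 rose or fell, against 5.08% and 8.68%. The median log2 change was 0.25 within numbers 4 and 5 and 0.06 within numbers 2 and 3 (all tested genes -0.03 and -0.04). The difference between the sets passed the test for 6 of 33 genes (18.2%), each with the larger rise in numbers 4 and 5, against 2.52% of all tested genes in either direction and 1.19% in that direction. These were Acat2, Insig1, Hmgcs1, Idi1, Msmo1 and Stard4. With each library centred on its median, which moved log2 changes by 0.05 and 0.06, the counts were 24 higher and 1 lower within numbers 4 and 5 (24.2% and 15% of all tested genes), 10 higher and 0 lower within numbers 2 and 3 (11.1% and 6.09%), and 10 positive and 0 negative for the difference (2.38% and 1.54%), the same 6 among them. The absence of calls within numbers 2 and 3, and the number of genes whose difference passed, thus depend on the scaling.

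**Figure D2:**
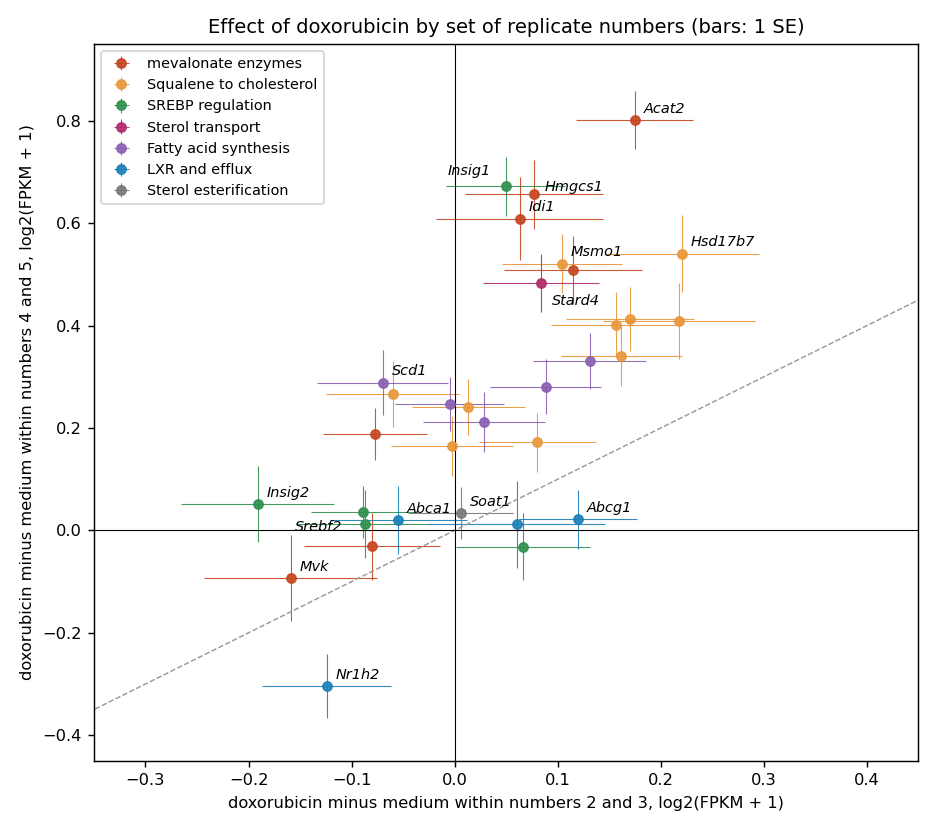
Effect of doxorubicin within numbers 4 and 5 (vertical axis) against the effect within numbers 2 and 3 (horizontal axis), on the log2(FPKM + 1) scale, for the 33 genes coloured by role, with bars of 1 SE. All 22 synthesis enzymes lie above the dashed line of equal effect, led by Acat2 at 0.80 and 0.17. Nr1h2 lies lowest at -0.30 and -0.12.

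Of the 7 enzymes of the mevalonate pathway, 5 rose within numbers 4 and 5 and 0 within numbers 2 and 3, with median log2 changes of 0.51 and 0.06. Acat2, the acetyl-CoA acetyltransferase that joins the first building blocks, had 29.4, 35.1, 31.7, 25.8 and 24.9 FPKM in doxorubicin libraries 1 to 5, against 26.8, 30.1, 28.8, 15.0 and 13.3 FPKM in medium libraries 1 to 5. It was higher with doxorubicin in every number, and the groups overlapped because medium 1 to 3 stood above doxorubicin 4 and 5. Medium 4 and 5 stood far below the other medium libraries. Its means were 29.4 ± 4.20 and 22.8 ± 8.0 FPKM in doxorubicin and medium (SD, n = 5 each). The log2 change of 0.42 had an SE of 0.22 and an adjusted p of 0.355 in limma, and an SE of 0.12 and an adjusted p of 0.0381 with the block. It rose by 0.80 within numbers 4 and 5 and by 0.17 (not past the threshold) within numbers 2 and 3, and the difference of 0.63 (SE 0.08) had an adjusted p of 0.00350 in limma. With median centring, the rise of Acat2 within numbers 2 and 3 was 0.23 and passed (limma adjusted p 0.0283).

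Hmgcs1, the synthase of HMG-CoA, the precursor of mevalonate, had 41.8, 62.8, 72.2, 46.8 and 47.6 FPKM in doxorubicin libraries 1 to 5, against 41.8, 65.7, 62.0, 30.7 and 28.6 FPKM in medium libraries 1 to 5. Doxorubicin libraries stood clearly above their medium partners in numbers 4 and 5, level in number 1, and on either side in numbers 2 and 3. The log2 change over all numbers was 0.29 (SE 0.25, limma adjusted p 0.570), while the difference between the sets was 0.58 (SE 0.10, adjusted p 0.0126). Idi1, the isomerase that makes dimethylallyl diphosphate, had 12.7, 19.1, 22.5, 18.1 and 16.8 FPKM in doxorubicin libraries, against 10.2, 20.8, 18.8, 10.9 and 11.3 FPKM in medium libraries. Only number 2 was lower with doxorubicin, and the difference between the sets was 0.55 (SE 0.11, limma adjusted p 0.0330).

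Mvd, the decarboxylase of mevalonate diphosphate, rose by 0.51 within numbers 4 and 5 and changed by 0.11 (not past the threshold) within numbers 2 and 3. The difference of 0.39 had a limma adjusted p of 0.0544, just beyond the threshold (0.0440 with median centring). Fdps, the farnesyl diphosphate synthase, was the most abundant of the 33 by FPKM in medium, at 239 ± 24.0 FPKM in doxorubicin and 247 ± 55.4 FPKM in medium libraries (SD, n = 5 each). Within numbers 4 and 5 it rose by 0.19. Fdps shares 26.7% of its exonic bases with Gm43738 on the same strand in the GENCODE vM21 annotation. Gm43738 has no FPKM value here, so the level and rank of Fdps are uncertain. The kinases Mvk and Pmvk had log2 changes of -0.09 and -0.03 within numbers 4 and 5 and did not pass. In number 1 both were lower with doxorubicin, Mvk at 6.63 FPKM against 10.3 FPKM in medium, and Pmvk at 22.4 FPKM against 34.3 FPKM.

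**Figure D3:**
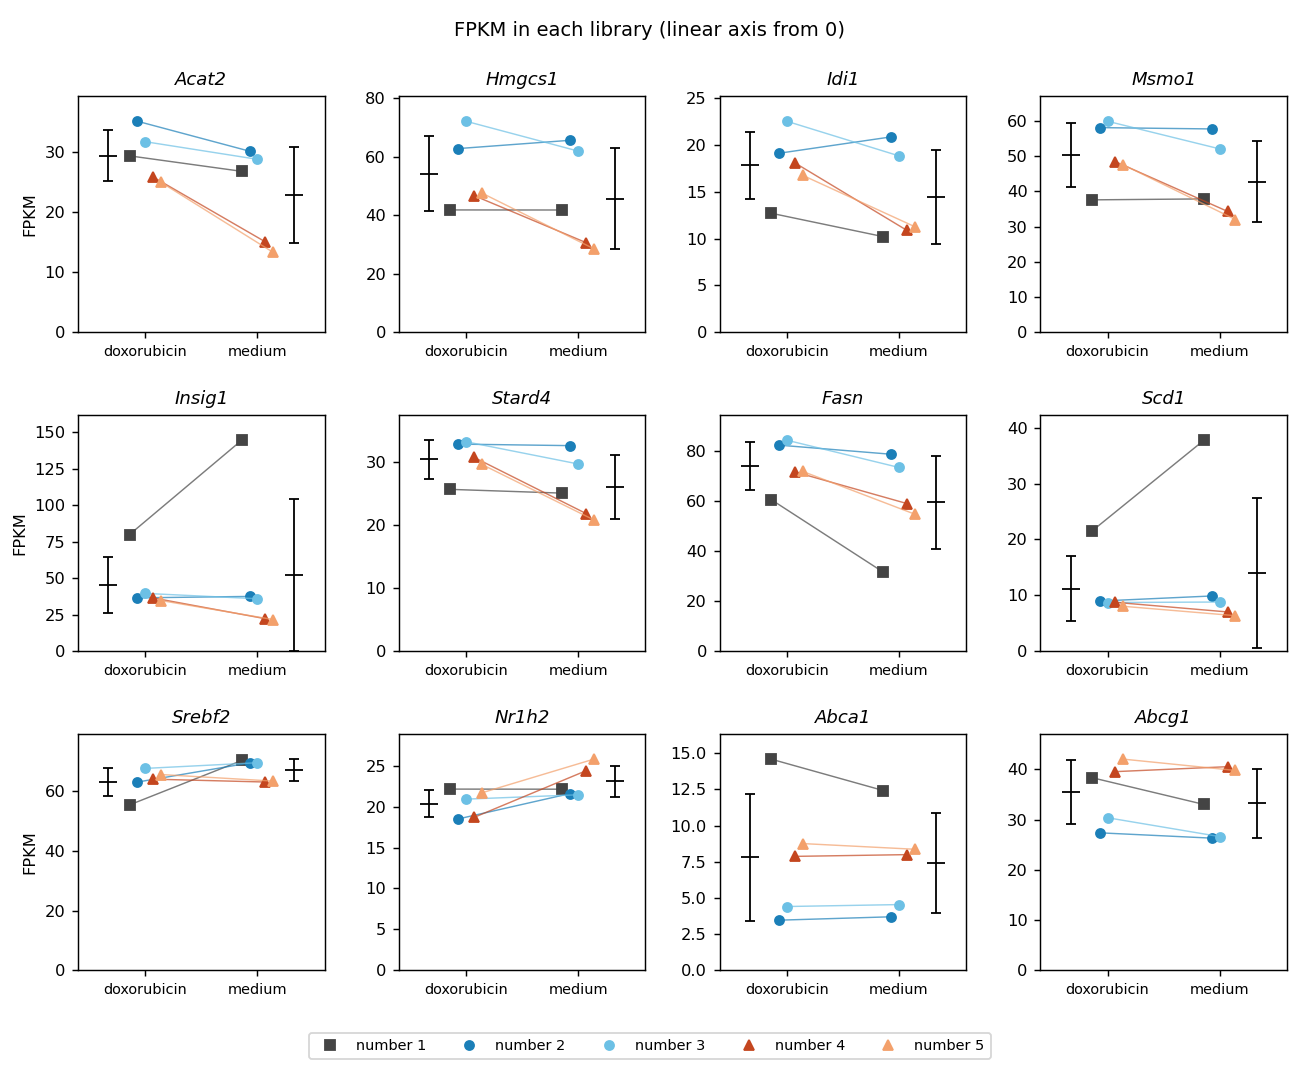
FPKM in each library for 12 genes, doxorubicin left and medium right, on linear axes from 0. Lines join libraries of the same replicate number, and the black bars show mean ± SD (n = 5); the lower end of the medium bar of Insig1 lies at the axis. Acat2, Hmgcs1, Idi1, Msmo1, Insig1 and Stard4 have steep lines in numbers 4 and 5, and Abca1 and Abcg1 have flat ones.

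Of the 10 enzymes from squalene to cholesterol, 9 rose within numbers 4 and 5 and 0 within numbers 2 and 3, with medians of 0.37 and 0.13. The exception was Sc5d, the lathosterol desaturase, at 0.16 with a limma adjusted p of 0.0504 in numbers 4 and 5 (0.00822 with median centring). With median centring, Fdft1, Cyp51, Msmo1, Nsdhl, Hsd17b7 and Dhcr7 also rose within numbers 2 and 3 (limma adjusted p 0.0154 to 0.0425), as did 11.1% of all tested genes. Hsd17b7, which reduces the ketone left by demethylation at carbon 4, had 4.69, 8.06, 8.51, 6.001 and 6.07 FPKM in doxorubicin libraries 1 to 5, against 3.77, 7.46, 6.50, 3.67 and 4.004 FPKM in medium libraries. Each doxorubicin library was above its medium partner, although the groups overlapped. Its means were 6.67 ± 1.58 FPKM in doxorubicin and 5.08 ± 1.77 FPKM in medium libraries (SD, n = 5 each), and its log2 change of 0.36 had an SE of 0.20 (limma adjusted p 0.375), or an SE of 0.08 with the block (adjusted p 0.0157).

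Dhcr7 encodes the reductase of the last step to cholesterol and had 37.5, 37.2, 34.5, 27.2 and 29.0 FPKM in doxorubicin libraries, against 34.4, 33.2, 28.3, 22.8 and 19.2 FPKM in medium libraries. It was higher with doxorubicin in all 5 numbers, and the groups overlapped. Its log2 change was 0.28, with an SE of 0.16 and a limma adjusted p of 0.398, or an SE of 0.07 and an adjusted p of 0.0255 with the block. The rise of Dhcr7 was 0.41 within numbers 4 and 5. Its change within numbers 2 and 3 was 0.22 (limma adjusted p 0.0730), or 0.27 with median centring (adjusted p 0.0425). The difference between the sets of 0.19 did not pass (adjusted p 0.360). The difference of Hsd17b7, 0.32, did not pass (adjusted p 0.139).

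Msmo1, the sterol-C4-methyl oxidase, had 37.6, 58.2, 60.0, 48.5 and 47.6 FPKM in doxorubicin libraries, against 37.9, 57.8, 52.1, 34.3 and 32.0 FPKM in medium libraries. Numbers 4 and 5 separated widely and numbers 1 and 2 hardly at all, and the difference between the sets was 0.42 (SE 0.08, limma adjusted p 0.0249). The other enzymes of this stretch that rose within numbers 4 and 5 were Fdft1 (squalene synthase, 0.41), Nsdhl (0.40), Cyp51 (lanosterol demethylase, 0.34), Lss (lanosterol synthase, 0.27), Sqle (squalene epoxidase, 0.24) and Ebp (sterol isomerase, 0.17), with adjusted p from limma of 0.0373 or less. Fdft1 shares 18.3% of its exonic bases with Ctsb on the opposite strand in the GENCODE vM21 annotation, and Ctsb averaged 758 FPKM in doxorubicin and 703 FPKM in medium libraries. Whether strand was used in counting was not given, so the level of Fdft1 is uncertain. In number 1, Lss was lower with doxorubicin, at 16.7 FPKM against 25.0 FPKM in medium, and Fdft1 at 16.6 FPKM against 25.0 FPKM.

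All 5 enzymes of fatty acid synthesis rose within numbers 4 and 5 and 0 within numbers 2 and 3, with medians of 0.28 and 0.03. With median centring, Fasn (0.18, limma adjusted p 0.0211) and Acly (0.14, adjusted p 0.0383) also rose within numbers 2 and 3. Fasn, the fatty acid synthase, had 60.6, 82.4, 84.3, 71.7 and 71.9 FPKM in doxorubicin libraries 1 to 5, against 31.6, 78.7, 73.4, 59.0 and 54.8 FPKM in medium libraries. Each doxorubicin library exceeded its partner, most of all in number 1, and the groups overlapped. The means were 74.2 ± 9.57 FPKM in doxorubicin and 59.5 ± 18.5 FPKM in medium libraries (SD, n = 5 each), and the log2 change of 0.37 had an SE of 0.21 (limma adjusted p 0.390), or an SE of 0.11 with the block (adjusted p 0.0432).

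Acly, which splits citrate to supply cytosolic acetyl-CoA, had 106, 96.5, 102, 91.0 and 90.8 FPKM in doxorubicin libraries, against 95.5, 95.8, 90.9, 76.4 and 72.9 FPKM in medium libraries. Numbers 1, 3, 4 and 5 were visibly higher with doxorubicin and number 2 was almost level. Its log2 change of 0.18 had an SE of 0.09 and a limma adjusted p of 0.339, or an SE of 0.05 and an adjusted p of 0.0436 with the block. Acaca, the acetyl-CoA carboxylase that commits carbon to fatty acids, rose by 0.21 within numbers 4 and 5, and Scd2, a stearoyl-CoA desaturase, by 0.25. Scd1, its close copy, had 21.5, 8.96, 8.70, 8.73 and 8.02 FPKM in doxorubicin libraries, against 37.8, 9.87, 8.79, 7.01 and 6.35 FPKM in medium libraries. It rose by 0.29 within numbers 4 and 5 and was far higher in both number 1 libraries than in the rest. Reads of Scd1 and Scd2 may be shared in counting, so their levels are uncertain. The differences between the sets were 0.18 to 0.36 and passed in limma for 0 of these 5 enzymes, or for 2 with median centring (Scd1 at 0.37, adjusted p 0.0402, and Scd2 at 0.26, adjusted p 0.0341).

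Among the 5 genes of the SREBPs and their regulation, Insig1 alone passed in the fits on values as deposited, and Srebf2 also passed with median centring. Insig1, which retains SCAP and is itself an SREBP target, had 79.9, 36.5, 39.6, 36.5 and 34.7 FPKM in doxorubicin libraries 1 to 5, against 145, 37.5, 35.9, 22.2 and 21.6 FPKM in medium libraries. The number 1 libraries were the highest of both groups, and in number 1 Insig1 was lower with doxorubicin, whereas in numbers 4 and 5 it was higher. It rose by 0.67 within numbers 4 and 5 and changed by 0.05 within numbers 2 and 3, a difference of 0.62 (SE 0.08, limma adjusted p 0.00360). Over all numbers its log2 change of 0.12 had an SE of 0.46 and an adjusted p of 0.927. Stard4, a carrier of cholesterol between membranes and an SREBP target, had 25.7, 32.9, 33.2, 30.8 and 29.6 FPKM in doxorubicin libraries, against 25.1, 32.6, 29.7, 21.8 and 20.8 FPKM in medium libraries. It rose by 0.48 within numbers 4 and 5, and the difference between the sets was 0.40 (SE 0.08, limma adjusted p 0.0260).

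Neither SREBP gene passed in the fits on values as deposited. Srebf2, the main activator of sterol synthesis, had 55.5, 63.2, 67.7, 64.1 and 65.7 FPKM in doxorubicin libraries, against 70.4, 69.6, 69.7, 63.2 and 63.5 FPKM in medium libraries. Its doxorubicin libraries were lower in numbers 1 to 3 and slightly higher in numbers 4 and 5, and its log2 change was -0.09 (SE 0.07, limma adjusted p 0.533). With median centring Srebf2 rose by 0.10 within numbers 4 and 5 (limma adjusted p 0.0483). Srebf1, tied more to fatty acid synthesis, had 33.4, 30.9, 37.9, 36.5 and 38.3 FPKM in doxorubicin libraries, against 34.7, 36.2, 36.7, 37.5 and 36.6 FPKM in medium libraries. These ranges overlapped fully, with a log2 change of -0.04 (SE 0.07, limma adjusted p 0.810).

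Scap, the escort of the SREBPs, had 13.9, 18.9, 18.7, 15.0 and 16.7 FPKM in doxorubicin libraries, against 9.57, 17.8, 18.1, 16.7 and 15.7 FPKM in medium libraries. The lowest library of both groups was medium 1, the groups overlapped, and the log2 change was 0.11 (SE 0.16, limma adjusted p 0.765). Insig2, the paralog of Insig1, had 9.89, 5.68, 6.42, 7.87 and 7.33 FPKM in doxorubicin libraries, against 13.7, 7.34, 6.75, 7.35 and 7.24 FPKM in medium libraries. It was lower with doxorubicin in numbers 1 to 3 and higher in numbers 4 and 5, with a log2 change of -0.14 (SE 0.19, limma adjusted p 0.742). On values as deposited, 0 of these 4 genes passed in limma with the block, within numbers 4 and 5 or for the difference between the sets.

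Neither exporter gene passed in the fits on values as deposited. Abca1, which loads cholesterol onto apolipoprotein A-I, had 14.6, 3.45, 4.398, 7.87 and 8.76 FPKM in doxorubicin libraries 1 to 5, against 12.4, 3.69, 4.53, 7.99 and 8.36 FPKM in medium libraries. It differed widely between numbers and hardly within them. Its means were 7.82 ± 4.41 FPKM in doxorubicin and 7.40 ± 3.48 FPKM in medium libraries (SD, n = 5 each), and with the block its log2 change was 0.03 (SE 0.06, limma adjusted p 0.744). Abcg1, the exporter to high-density lipoprotein, had 38.4, 27.4, 30.4, 39.5 and 42.0 FPKM in doxorubicin libraries, against 33.01, 26.3, 26.6, 40.5 and 39.8 FPKM in medium libraries. Its pairs stayed close, and its log2 change was 0.10 (SE 0.05 and limma adjusted p 0.188 with the block). With median centring it rose by 0.17 within numbers 2 and 3 (limma adjusted p 0.0338).

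Nr1h2, the gene of LXR beta, was the one of the 33 that fell, and only in the fits without number 1. It had 22.2, 18.5, 20.9, 18.7 and 21.7 FPKM in doxorubicin libraries, against 22.1, 21.6, 21.5, 24.4 and 25.8 FPKM in medium libraries. Number 1 was level and numbers 2 to 5 were lower with doxorubicin, so that it fell by 0.30 within numbers 4 and 5 (limma adjusted p 0.00363) and, without number 1 and with the block, had an adjusted p of 0.0209. Over all numbers its log2 change of -0.17 (SE 0.08) did not pass, with adjusted p of 0.281 without and 0.0820 with the block.

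Mylip, a ubiquitin ligase and LXR target, had 3.96, 3.502, 3.87, 4.498 and 5.54 FPKM in doxorubicin libraries, against 3.86, 3.76, 3.24, 4.82 and 5.08 FPKM in medium libraries. The groups overlapped almost entirely, with a log2 change of 0.03 (SE 0.13, limma adjusted p 0.921). Soat1, the acyltransferase that stores cholesterol as esters, had 97.3, 68.8, 73.8, 88.2 and 87.3 FPKM in doxorubicin libraries, against 103, 71.4, 70.6, 85.3 and 86.0 FPKM in medium libraries. The number 1 libraries were highest in both groups, and the change was -0.0018 on the log2 scale (SE 0.12, limma adjusted p 0.996). With median centring Soat1 rose by 0.10 within numbers 4 and 5 (limma adjusted p 0.0472).

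The medians of the 4 LXR and efflux genes were 0.12, -0.08, 0.07, -0.06 and 0.07 in numbers 1 to 5, and those of the 22 synthesis enzymes -0.06, -0.01, 0.15, 0.26 and 0.34. The synthesis enzymes thus had the higher median in numbers 2 to 5 and the lower one in number 1. The difference between the sets passed for 4 of the 22 enzymes and 0 of the 4 LXR and efflux genes in limma. Of all tested genes, 2.52% passed in either direction and 1.19% in the positive one. With median centring it passed for 8 and 0, against 2.38% positive and 1.54% negative of all tested genes. At such shares, 0 of 4 is no result about the LXR and efflux genes. The gap between both groups of genes was not itself tested.

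**Figure D4:**
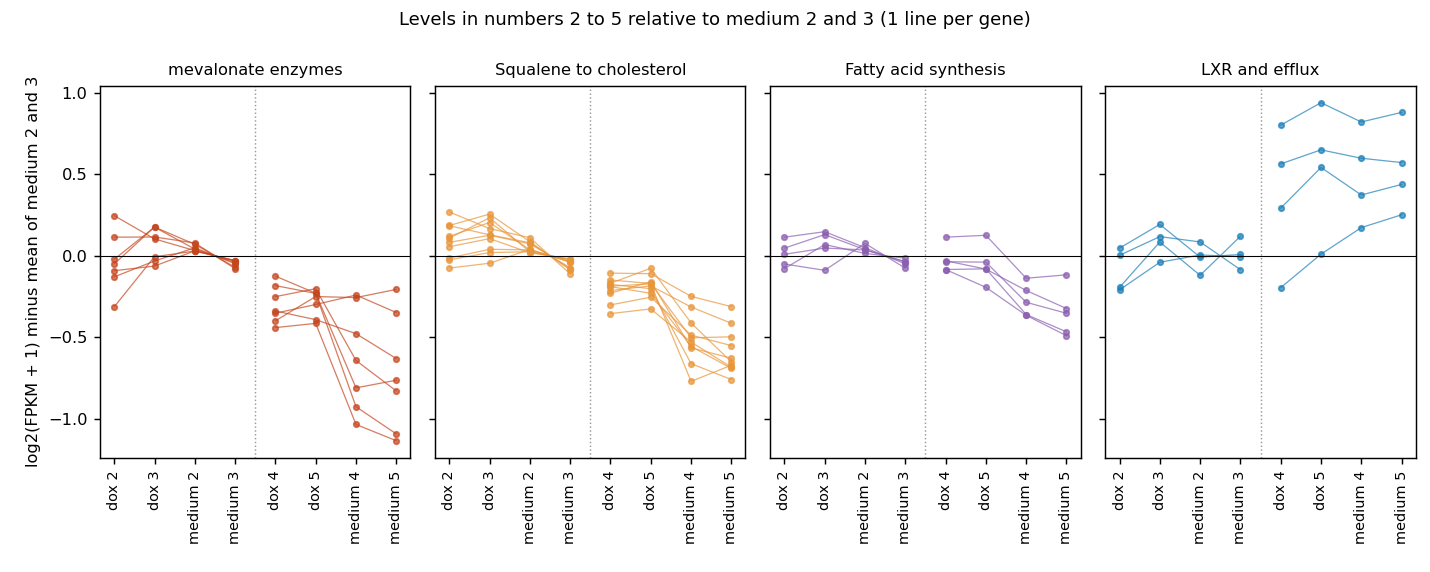
Level of the synthesis enzymes and of the LXR and efflux genes in the 8 libraries of numbers 2 to 5, as log2(FPKM + 1) minus the mean of medium 2 and 3. Numbers 2 and 3 lie left of the dotted line and numbers 4 and 5 right of it, each with doxorubicin before medium. Each line links the points of 1 gene. All 22 synthesis enzymes are below 0 in medium 4 and 5, with a median gap of -0.52, while 3 of the 4 LXR and efflux genes are clearly above 0 in numbers 4 and 5 of both groups.

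The sets of numbers also differed within each group. In doxorubicin libraries, numbers 4 and 5 both lay below numbers 2 and 3 for 19 of the 22 synthesis enzymes (25.5% of all tested genes), and in medium libraries for 22 of 22 (31.9% of all tested genes). The median gap was -0.28 in doxorubicin and -0.52 in medium libraries on the log2 scale. The LXR and efflux genes lay the other way. Numbers 4 and 5 both lay above numbers 2 and 3 for 3 of 4 in doxorubicin libraries (35.6% of all tested genes) and for 4 of 4 in medium libraries (41.5%), with median gaps of 0.42 and 0.49. The difference between these gaps in doxorubicin and in medium is the same quantity as the difference of the effect between the sets, and is no second result. What set the numbers apart was not given in the labels, and its part in the result was not tested.

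Number 1 was unlike both sets. The change between its doxorubicin and medium library was 0.92 for Fasn and 0.50 for Scap, against -0.85 for Insig1, -0.79 for Scd1, -0.60 for Pmvk, -0.57 for Mvk, -0.57 for Fdft1 and -0.55 for Lss, all on the log2 scale. Medium 1 lay above medium 2 to 5 for 14 of 33 genes and below them for 4, against 30.4% and 48.6% of all tested genes. With 1 library per group, these values have no replicate.

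Another 66 genes of the same pathways were set beside the 33, and 55 were tested. The other 11 had a mean under 1 FPKM and were not tested, among them Elovl7, Fads3, Acacb, Mlxipl, Rxra, Apoc1, Abcg4, Pltp and Ch25h. In the fit without the block 0 of 55 passed, and with the block 6 rose and 7 fell, where 7.81% and 13.7% of all tested genes did. Within numbers 4 and 5, 15 rose and 11 fell, where 13.5% and 20.9% of all tested genes did. Their median log2 change was 0.01 within numbers 4 and 5 and -0.04 within numbers 2 and 3.

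On the side of synthesis, the genes that rose with the block were Elovl6 (0.37, the elongase that turns palmitate into stearate), Me1 (0.34, the malic enzyme that supplies NADPH) and Aacs (0.22, acetoacetyl-CoA synthetase). Those that fell were Spring1 (-0.30, a factor needed for SREBP processing), Erlin1 (-0.28, an endoplasmic reticulum scaffold), Npc1 (-0.22, the lysosomal cholesterol exporter), Lbr (-0.20, the lamin B receptor, which also has sterol reductase activity) and Fads1 (-0.20, a desaturase of polyunsaturated fatty acids). Spring1 had 5.83, 5.87, 6.82, 7.11 and 7.27 FPKM in doxorubicin libraries, against 8.46, 7.60, 7.76, 8.61 and 9.10 FPKM in medium libraries. It was the 1 gene of the 55 whose groups did not overlap, against 6.7% of all tested genes. Its limma adjusted p was 0.113 without and 0.0119 with the block.

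Of the 17 tested genes of lipid handling, 3 rose and 2 fell with the block, where 7.81% and 13.7% of all tested genes did. Apoe and Apoc2, known LXR targets in macrophages, and Smpdl3a, an LXR target in human macrophages, rose. Soat2 and Rxrb fell. The LXR targets Abca1, Abcg1 and Mylip did not pass in that fit. Apoe, the apolipoprotein that macrophages secrete with cholesterol, had 63.4, 17.6, 16.9, 23.9 and 23.3 FPKM in doxorubicin libraries, against 35.2, 12.1, 11.5, 18.5 and 17.02 FPKM in medium libraries. It was higher with doxorubicin in 5 of 5 numbers, by 0.53 on the log2 scale (SE 0.07 with the block, limma adjusted p 0.00339; 0.497 without the block). The rise was of like size in both sets, 0.39 within numbers 4 and 5 and 0.51 within numbers 2 and 3 (adjusted p of the difference 0.465). Apoc2 changed by 0.56 (adjusted p 0.0130 with the block) and Smpdl3a, a phosphodiesterase, by 0.22 (adjusted p 0.0228).

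Soat2, the second cholesterol acyltransferase, had 2.24, 0.939, 1.10, 3.82 and 3.75 FPKM in doxorubicin libraries, against 6.65, 2.52, 4.32, 13.2 and 14.8 FPKM in medium libraries. Each doxorubicin library was below its partner, and the groups overlapped only because the numbers differ so much in level. The log2 change was -1.35 (SE 0.43 and limma adjusted p 0.150 without the block, SE 0.11 and adjusted p 0.000538 with it), a larger change than that of any of the 33 genes in that fit. Rxrb, a partner receptor of LXR, fell by 0.29 (adjusted p 0.0218 with the block). Lpin1, a phosphatidate phosphatase and SREBP target, was looked at after its values were seen because its difference between the sets passed, at 0.67 (SE 0.12, limma adjusted p 0.0187). It had 5.94, 2.23, 2.83, 3.02 and 3.21 FPKM in doxorubicin libraries, against 6.08, 2.61, 2.58, 1.66 and 1.603 FPKM in medium libraries.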

How the data were processed

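Poly(A) RNA of 10 RAW264.7 libraries (5 doxorubicin, 5 medium) was sequenced. The values deposited by the authors are FPKM in 1 column per library, with 22186 gene symbols. GRCm39 is the build that the submitters' processing notes name. For the aligner, quantifier, annotation and use of strand, nothing is given in the sources used here. Low FPKM values showed no whole-read steps, so no count test was run.

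Values were analysed as log2(FPKM + 1), and fold changes on this scale understate changes of low genes. The 9869 genes averaging 1 FPKM or more were fitted with limma 3.58.1 in R 4.3.3 (group as the only term, mean-variance trend, Benjamini-Hochberg over those genes, threshold 0.05), after the code was tested on simulated data. Alternatives were the replicate block, a pseudocount of 0.1, no filter, median centring, leaving out each library, leaving out number 1, and effects by set of numbers. The last were added after the data were seen.

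Titles of both groups carry the numbers 1 to 5. Deviations from group means correlated at 0.52 to 0.79 between libraries of the same number, so the numbers were used as a block. They correlated as closely between numbers 2 and 3 (0.59 to 0.69) and between 4 and 5 (0.51), while other pairs lay between -0.61 and 0.0029.

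The 33 genes and the other lists were chosen with earlier results of these data known. Every one of the 33 is accounted for. Values per library were given for genes past the threshold with or without the block, for the regulators, the efflux genes and Soat1, and, added after the values were seen, for genes whose effect differed between sets of numbers, Scd1 and Spring1. Other pathway genes are named where they passed either fit. Lpin1 was named after its values were seen, and a few other pathway genes are not reported here. Promoter sequences are RefSeq's, in GRCm38.p6, and the exon overlaps use GENCODE vM21. Both belong to an earlier build than the FPKM values.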

Additional observations from a re-analysis of the deposited data

Results flagged for a closer look

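The outlier test compared the gap of an extreme library with the range of its group on the log2 scale, in 94 groups of 5 libraries (47 genes), and chance alone would mark about 1 in 20. It marked 12, and each was a library of replicate number 1. The share marked over all tested genes was not computed, so the count is no result about these genes. Of all tested genes, 30.4% had medium 1 above medium 2 to 5 and 48.6% had it below. In doxorubicin replicate 1, Insig1 stood at 79.9 FPKM (the other 4 at 34.7 to 39.6), Scd1 at 21.5 FPKM (8.02 to 8.96), Apoe at 63.4 FPKM (16.9 to 23.9) and Apoc2 at 24.9 FPKM (7.57 to 9.64). Erlin1 at 13.8 FPKM (21.3 to 23.3) and Smpdl3a at 18.1 FPKM (20.5 to 21.3) were low there. In medium replicate 1, Insig1 stood at 145 FPKM (the other 4 at 21.6 to 37.5), Insig2 at 13.7 FPKM (6.75 to 7.35), Scd1 at 37.8 FPKM (6.35 to 9.87) and Scd2 at 362 FPKM (202 to 225). Scap at 9.57 FPKM (15.7 to 18.1) and Lbr at 19.3 FPKM (27.1 to 28.6) were low there.

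The effect of doxorubicin differed between numbers 4 and 5 and numbers 2 and 3 in limma for 8 of the genes named, on the log2 scale. These were 6 of the 33 genes (18.2%) and 2 of the 55 other tested pathway genes (3.64%), against 2.52% of all tested genes. Of the 2, Lpin1 was named only because its difference passed. The difference was 0.63 for Acat2, 0.58 for Hmgcs1, 0.55 for Idi1, 0.42 for Msmo1, 0.62 for Insig1, 0.40 for Stard4, 0.67 for Lpin1 and -0.45 for Erlin1, with adjusted p between 0.00350 and 0.0330. The sets of numbers were read from the same values.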

How the results depend on the processing

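Without the block, all genes tested gave 68 calls higher and 22 lower and the 33 genes 0 and 0. The replicate block gave 771 and 1356 over all genes and 5 and 0 of the 33. Leaving out both number 1 libraries gave 283 and 273 (0 and 0 of the 33) without the block and 1010 and 1817 (14 and 1) with it. Within numbers 2 and 3 the calls were 501 and 857 (0 and 0), or 1094 and 601 (10 and 0) with median centring. Within numbers 4 and 5 they were 1335 and 2066 (21 and 1), or 2386 and 1476 (24 and 1) with median centring. Leaving out 1 library at a time gave 15 to 136 higher and 0 to 90 lower over all genes, and 0 to 0 of the 33. A pseudocount of 0.1 and no filter changed no sign and no call among the 33 genes.

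These changes turned sign. Median centring gave Fdps 0.024, Lss 0.018, Srebf1 0.0051 and Soat1 0.044. Without number 1, with and without the block, Fdps was 0.056, Lss 0.10, Scd1 0.11, Abca1 -0.017 and Soat1 0.020. Within numbers 2 and 3, Sc5d was -0.0022, Scd2 -0.0050, Abca1 -0.055, Soat1 0.0057 and Lpin1 -0.029. Within numbers 4 and 5, Fdps was 0.19, Lss 0.27, Srebf1 0.012, Srebf2 0.035, Scap -0.032, Insig2 0.052, Scd1 0.29 and Soat1 0.034. With 1 library left out, the log2 change ran from -0.21 to 0.24 for Abca1, -0.0053 to 0.24 for Fdft1, -0.131 to 0.062 for Fdps, -0.10 to 0.581 for Insig1, -0.24 to 0.027 for Insig2, -0.16 to 0.12 for Lss, -0.046 to 0.098 for Mylip, -0.041 to 0.172 for Scap, -0.315 to 0.355 for Scd1, -0.031 to 0.219 for Scd2, -0.061 to 0.079 for Soat1, -0.038 to 0.11 for Sqle and -0.070 to 0.0054 for Srebf1. The cause was not tested. Depth is unknown, so no limit from counting can be given.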
